A study of Mus musculus with 3 samples.

Results

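The mitochondrial ribosomal protein genes are the nuclear genes for the proteins of the ribosome that works inside mitochondria. They were chosen by name: every protein-coding gene whose mouse symbol is Mrpl or Mrps followed by a number. This gave 78 genes of the 50600 in the count tables, 49 named Mrpl for the large subunit and 29 named Mrps for the small subunit. They lie on 17 chromosomes, with 11 of them on chromosome 11. The members were split by what lies across from them on the DNA. A gene is called opposed where at least a base of its exons is also exon of an opposite-strand gene, and unopposed where no opposite-strand gene reaches into its span. By this rule 26 members were opposed, 44 were unopposed and 8 lay between the classes, with an opposite-strand gene in their span but no shared exon bases. Opposed genes made up 33.3% of the members and 22.1% of all protein-coding genes.

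RNA was measured in mouse T-helper 1 (Th1) cells, the CD4 helper T cells known for making interferon-gamma. The labels give primary cells of strain C57BL/6NJ, with no allele or drug named, and link a protocol for differentiating CD4+ T cells. They hold 3 libraries, numbered as biological replicates 1, 2 and 3, which form 1 group with no second group beside it, and the headers of the count tables name a time of 2 hours. The libraries have separate biosamples and a shared donor entry, and nothing says whether they come from separate animals, so p-values between them measure only the spread between these samples, which may be technical.

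Mitochondria keep a small genome of their own, which codes for core subunits of the respiratory chain and for the ribosomal RNAs of the mitochondrial ribosome. All the proteins of that ribosome are encoded in the nucleus, made in the cytosol and imported. Some have a counterpart in bacterial ribosomes and others exist only in mitochondria. T cells enlarge their mitochondria when they are activated, and blocking mitochondrial translation is known to impair their growth and cytokine production.

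The 120 bases before the transcription start are shown for 6 unopposed members, the 3 of highest and the 3 of lowest level among the 17 unopposed members with a single RefSeq start and no exon of the tables in that stretch. They are shown so that the starts of strongly and weakly counted members can be compared by eye. The sequences are RefSeq's on GRCm38.p6, each 5′ to 3′ on the gene's own strand, with the letters of the 10 motifs searched (below) in capitals wherever they occur on either strand. The coordinates are chr13:14613038-14613157 (minus) for Mrpl32, chr11:88204268-88204387 (plus) for Mrps23, chr19:11770295-11770414 (plus) for Mrpl16, chr10:95501950-95502069 (minus) for Mrpl42, chr8:71464806-71464925 (plus) for Mrpl34 and chr13:100744660-100744779 (minus) for Mrps36.
Mrpl32: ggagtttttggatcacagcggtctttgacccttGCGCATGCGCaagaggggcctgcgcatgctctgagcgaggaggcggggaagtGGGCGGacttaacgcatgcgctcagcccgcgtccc
Mrps23: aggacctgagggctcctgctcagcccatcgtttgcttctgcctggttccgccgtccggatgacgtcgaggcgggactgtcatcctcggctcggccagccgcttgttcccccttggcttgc
Mrpl16: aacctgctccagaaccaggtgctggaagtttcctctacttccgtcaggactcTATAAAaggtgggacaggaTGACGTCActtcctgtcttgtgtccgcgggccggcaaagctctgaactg
Mrpl42: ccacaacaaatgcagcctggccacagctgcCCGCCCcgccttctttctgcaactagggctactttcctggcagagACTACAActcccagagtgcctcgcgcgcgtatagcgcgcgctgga
Mrpl34: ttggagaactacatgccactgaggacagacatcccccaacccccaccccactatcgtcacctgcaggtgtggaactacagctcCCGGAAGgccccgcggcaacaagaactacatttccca
Mrps36: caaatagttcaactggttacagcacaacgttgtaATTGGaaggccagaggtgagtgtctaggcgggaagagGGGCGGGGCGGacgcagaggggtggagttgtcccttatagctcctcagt

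Among these, Mrpl32 (77.7 TPM) carries the letters of the NRF1 motif and of the GC box (GGGCGG), and Mrpl16 (24.1 TPM) those of the TATA box (TATAAA) and of the CRE (TGACGTCA). Mrps23 (29.1 TPM) carries none of the 10. Mrpl42 (2.96 TPM) carries a GC box on the other strand and the THAP letters ACTACAA, Mrpl34 (2.67 TPM) the ETS letters CCGGAAG, and Mrps36 (2.07 TPM) GC box letters and the CCAAT box on the other strand. TPM, a relative transcript abundance, is a gene's count divided by its exon length and scaled so that each library sums to the same total.

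The other set of sequences that the results turn on is where a member shares exon bases with a gene on the other strand. In most pairs the shared stretch runs to 75 bases or more, but in a few it is a handful of bases. Mrpl53 and the antisense gene Ccdc142os share 15 bases, at chr6:83109040-83109054 in an untranslated region of Mrpl53, and Mrps26 shares 8 bases, at chr2:130563742-130563749, with the antisense gene 4930473A02Rik. Mrpl46 and Mrps11 are both members and point away from each other with 173 shared bases, of which 30 are shown, at chr7:78783394-78783423, where they are coding sequence of Mrps11. The sequences are from GENCODE transcripts on GRCm38, each on the strand of the member named first.
Mrpl53 and Ccdc142os: gcggagccgccggaa
Mrps26 and 4930473A02Rik: acttccgg
Mrpl46 and Mrps11: ctggtcattccatgtccagcccaggaccgc

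Total counts were 4442901, 3123869 and 2950658 in replicates 1, 2 and 3. Of the T cell markers 9 of 9, among them Cd3e, Cd4, Lck and Trac, stood at 1 TPM or more in every library, with a summed level of 1734 to 4008 TPM. Of 5 Th1 markers 3 did so: Tbx21, the Th1 master regulator, with 2.53 ± 0.997 TPM (SD, n = 3), Stat4 with 15.9 ± 6.49 TPM and Il12rb2 with 11.9 ± 3.97 TPM. Il12rb2 is opposed, by Serbp1. Ifng had 1, 2 and 0 counts, and Cxcr3 lay below 1 TPM in replicates 2 and 3. Of the B cell markers, Cd79b and Ms4a1 had no count, while Cd79a had 36.4 TPM. Of the 5 macrophage and neutrophil markers Lyz2 and S100a9 had no count, while 2 stood at 1 TPM or more in every library. These were Cd68, an unopposed gene with 7.23 ± 1.39 TPM (SD, n = 3), and Csf1r, an opposed gene. Csf1r made up most of the summed 137 to 181 TPM of these markers. Of the 2 CD8 markers, both unopposed, Cd8b1 had 6.73 ± 3.36 TPM (SD, n = 3) and Cd8a had 2, 1 and 0 counts. Reads within the exon bases that an opposed gene shares with its partner are told apart by strand alone, and the counting used strand setting 1. Opposed genes of all kinds held 55.1%, 69.1% and 67.3% of all counts in replicates 1, 2 and 3. Whether the setting matches the strand of the libraries was not tested, and a mismatch would affect every value below.

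The members were counted in nearly every case, at a modest level. Of the 78, 74 (94.9%) stood at 1 TPM or more in every library, against 38.7% of all protein-coding genes. The 4 others were Mrpl53, with no count at all, and Mrpl34, Mrps36 and Mrps35, which fell below 1 TPM in replicate 3, 2 and 2. Among the unopposed members alone, 41 of 44 reached the level, against 32% of unopposed protein-coding genes. The median member had 17.1, 7.21 and 9.17 TPM in replicates 1, 2 and 3, which average 11.2 ± 5.23 (SD, n = 3), where the median protein-coding gene had 0.252 TPM. A mean of 5 to 30 TPM covered 50 of the 78. Replicate 1 was high and replicates 2 and 3 were low and near each other. In bulk RNA such as this, fewer cells of a type and less RNA per cell cannot be told apart.

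Together the members took 13849, 8590 and 8822 counts, which is 0.312%, 0.275% and 0.299% of the libraries. These counts were very unevenly shared. Mrps25 and Mrpl47, both opposed, held 34.6%, 51.1% and 46.4% of them, and the 26 opposed members together 67.6%, 80.1% and 78.0%. The opposed share was lowest in replicate 1 and higher in replicates 2 and 3, for the members as for all genes. The order of the members was similar between libraries, with Spearman's rho of TPM between 0.907 and 0.945 for the 3 pairs of libraries (n = 78 members, which share library and length).

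**Figure D1:**
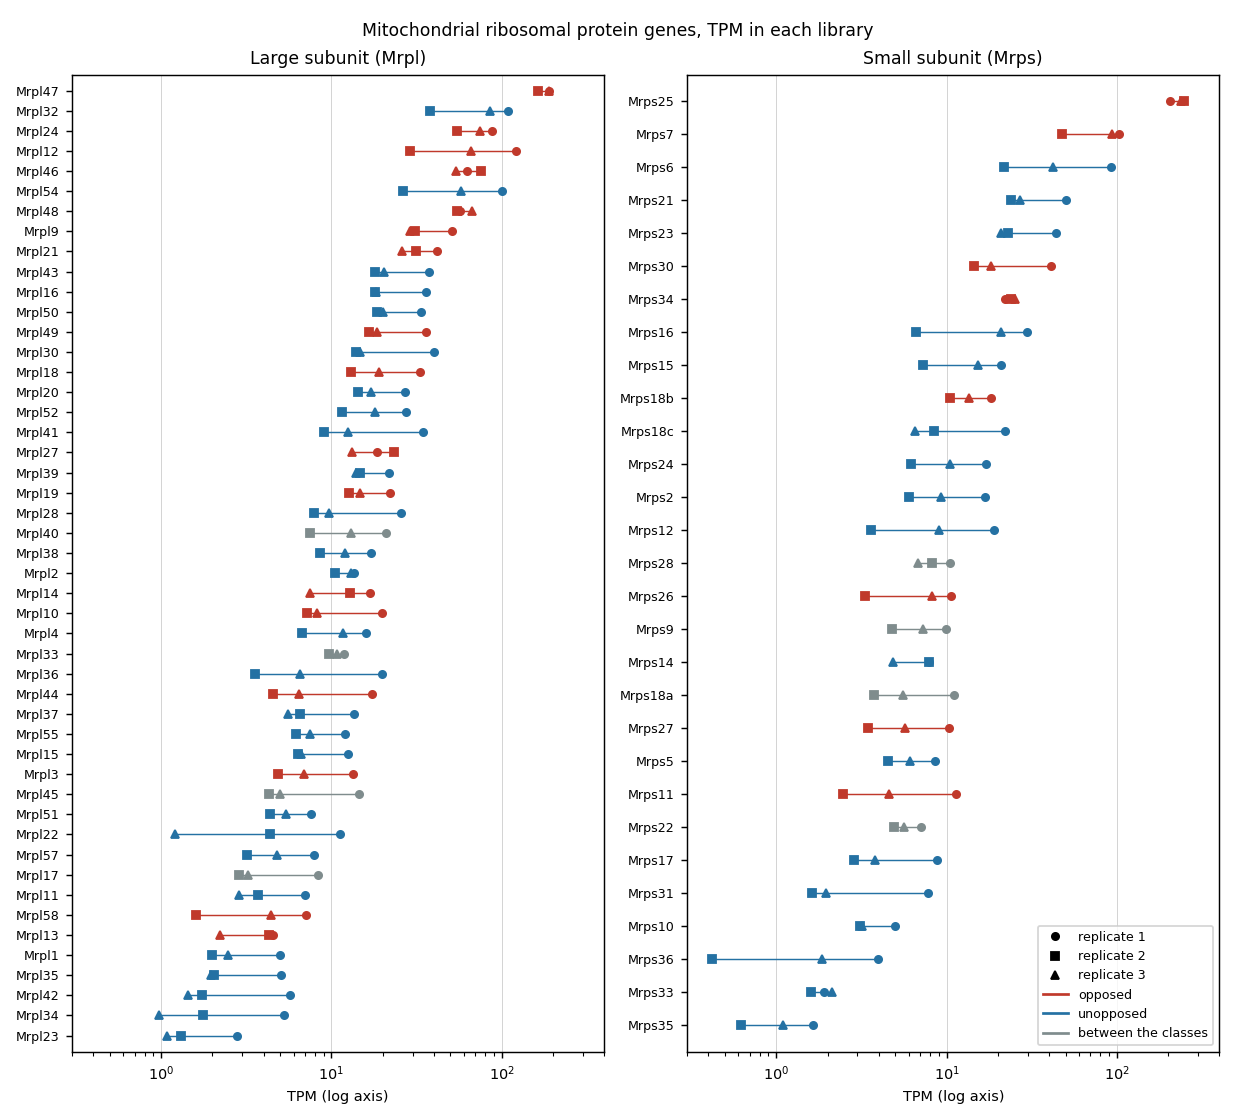
Level of each mitochondrial ribosomal protein gene in each library, in TPM on a log axis, with large subunit genes on the left and small subunit genes on the right, ordered by mean. Points are the 3 libraries, lines span them, and colours mark the strand class; Mrpl53, with no count, is not drawn. Mrps25 and Mrpl47 lie far above the rest, and the round points of replicate 1 are at the right end of most lines.

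Among the proteins of the large subunit, Mrpl47 stood highest. It is the mitochondrial counterpart of the bacterial protein L29, which sits by the exit of the peptide tunnel. It had 190.4, 163 and 189.5 TPM in replicates 1, 2 and 3, or 1841, 1354 and 1422 counts. These values nearly coincide in replicates 1 and 3 and are lowest in replicate 2. The gene lies at chr3:32725397-32737605 on mm10 and is opposed at both ends, by Actl6a over 452 bases and by Ndufb5 over 616 bases.

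The next large subunit gene, Mrpl32 at chr13:14610301-14613037, is the highest unopposed member. Its protein is processed by a mitochondrial protease before it joins the ribosome. It had 109, 38.2 and 85.9 TPM, low in replicate 2 and higher in the other libraries. Mrpl24 had 87.7, 54.4 and 75.0 TPM and is opposed tail to tail by Rrnad1 over 594 bases. Mrpl12, a counterpart of the bacterial stalk protein L7/L12 that also binds the mitochondrial RNA polymerase, had 121, 28.9 and 66.5 TPM. Its lowest and highest libraries were 4.20-fold apart, a wider range than in Mrpl47 or Mrpl24.

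Mrpl46, which exists only in mitochondrial ribosomes, broke the usual order: its 63.0, 76.1 and 53.7 TPM were highest in replicate 2. Mrpl54, another mitochondria-specific protein and the second unopposed gene among the 8 highest members, followed the usual order with 100.2, 26.5 and 57.8 TPM. Of the 8 highest members 6 were opposed.

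The small subunit was led by Mrps25, the highest of all members, at chr6:92169525-92184033. It is a mitochondria-specific protein. It had 205, 246 and 239 TPM, or 2957, 3038 and 2671 counts, averaging 230.3 ± 21.8 TPM (SD, n = 3) and lowest in replicate 1. An opposing gene, Nr2c2, shares 4590 of its exon bases (69.8%), tail to tail. Mrps7, a counterpart of the bacterial protein S7 that organises the head of the subunit, had 103, 47.6 and 93.2 TPM. It is opposed at both ends, by Gga3 over 127 and Mif4gd over 119 bases. Mrps6, an unopposed member and a counterpart of bacterial S6, had 92.0, 21.8 and 42.0 TPM, high in replicate 1 and low in replicate 2.

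At the other end, the 8 lowest members were Mrpl53, Mrps35, Mrpl23, Mrps33, Mrps36, Mrpl34, Mrpl42 and Mrpl35, and 7 of them, all but Mrpl53, were unopposed. Mrpl53 (chr6:83109040-83109939) had 0 counts in each library, which at a limit of 3 counts allows up to 1.74, 2.02 and 2.24 TPM. Its partner Ccdc142os, which shares the 15 bases shown above, had 39.2, 40.9 and 43.0 TPM. Mrps35, a small subunit protein, had 1.64, 0.618 and 1.09 TPM, or 31, 10 and 16 counts over the longest exon length of all members. Mrpl34 and Mrps33 had single-digit counts in every library, 7, 2 and 1 for Mrpl34 and 7, 5 and 6 for Mrps33, so that their levels are poorly determined.

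Mrps36 had 11, 1 and 4 counts. Despite its name, its protein is now known as part of the 2-oxoglutarate dehydrogenase complex. Mrpl23 had 2.81, 1.31 and 1.09 TPM, Mrpl42 had 5.71, 1.74 and 1.44 TPM and Mrpl35 had 5.04, 2.04 and 1.98 TPM. Each was highest in replicate 1. The processed copies of members in the tables had next to no counts: Mrpl48-ps, Mrps36-ps1 and Mrps36-ps3 had none, Mrps36-ps2 had 1 in replicate 2 and Mrpl23-ps1 had 2 in replicate 3.

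Mrps18 is the name of a family of 3 related proteins. Mrps18c is the form that corresponds to bacterial S18, Mrps18b sits elsewhere in the small subunit, and Mrps18a is found in the large subunit. Mrps18c, which is unopposed, had 22.1, 8.42 and 6.57 TPM. Mrps18b, opposed by the antisense gene Gm16279, had 18.2, 10.5 and 13.5 TPM, and Mrps18a had 11.02, 3.76 and 5.59 TPM. The means were 12.4 ± 8.47, 14.1 ± 3.87 and 6.79 ± 3.78 TPM (SD, n = 3). Mrps18a was the lowest of the 3 in every library, and Mrps18b exceeded it by 7.13, 6.71 and 7.95 TPM, a difference larger than its spread. Mrps18c was the highest in replicate 1 and lay between the other two in replicates 2 and 3.

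Genes named for the large subunit had a higher median TPM than those named for the small subunit. Subunits are taken from the symbol, although structures place Mrps18a and Mrps30 in the large subunit and Mrps36 in the complex named above. The median was 18.6, 8.57 and 11.7 TPM over the 49 Mrpl genes and 11.4, 6.03 and 7.26 TPM over the 29 Mrps genes. The difference of the medians of log2(TPM + 0.1) was 0.63 ± 0.11 (SD, n = 3), positive in 3 of 3 libraries, with p = 0.25 in an exact two-sided sign-flip permutation test, the smallest p that 3 libraries allow. It was 0.50 ± 0.08 with Mrps18a and Mrps30 counted as large and Mrps36 left out. Other settings moved it by more. On CPM, counts scaled to the library total without length correction, it was 0.09 ± 0.12, with the sign turned in replicate 3 (-0.04). Over unopposed members alone it was 0.22 ± 0.31, with the sign turned in replicate 1 (-0.06), and with the mean in place of the median it was 0.24 ± 0.18.

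Genes listed as having a bacterial counterpart and the remaining members, called mitochondria-specific, had similar medians. The 45 genes of the first kind had a median of 16.9, 7.18 and 9.06 TPM and the 33 of the second 17.2, 7.47 and 12.01 TPM. The log2 difference was -0.16 ± 0.21, less than the spread between replicates (exact sign-flip permutation p = 0.25, 3 of 3 libraries negative), and it turned positive, 0.09, with the mean in place of the median. The list places Mrpl47 in the second kind although its protein matches bacterial L29. The second kind also holds Mrps18a and Mrps18b, variant copies related to Mrps18c. With Mrpl47 in the first kind the difference was -0.03 ± 0.08 (exact sign-flip permutation p = 0.75). The lowest median of the 4 combinations of subunit and kind, 6.69 TPM, was that of the 13 mitochondria-specific genes named Mrps, which also include the highest member, Mrps25. Without Mrps18a, Mrps30 and Mrps36 the 10 others had a median of 7.23 TPM.

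Opposed members stood higher than unopposed members. The median was 22.0, 13.7 and 16.4 TPM over the 26 opposed and 16.4, 6.49 and 8.26 TPM over the 44 unopposed members. The log2 difference was 0.42, 1.06 and 0.98 in replicates 1, 2 and 3, which average 0.82 ± 0.35 (SD, n = 3), positive in 3 of 3 libraries (exact two-sided sign-flip permutation p = 0.25). It was 0.44 when any overlap of spans counted as opposed. The same direction held for protein-coding genes at a mean of 1 TPM or more, where the difference was 0.63 ± 0.17. At that level the members' difference minus that of the other genes was -0.01, 0.37 and 0.45 in replicates 1, 2 and 3. It averaged 0.27 ± 0.24, positive in 2 of 3 libraries (exact sign-flip permutation p = 0.50). The smallest p that 3 libraries allow is 0.25, so this test cannot decide whether the members differ from other genes. The part of the strand setting in these differences was not tested.

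Further measures went with level among the members, given as descriptions over genes that share libraries. Among the 26 opposed members the share of exon bases that is opposed and the mean TPM had a Spearman's rho of 0.53. Among unopposed members exon length and TPM had a rho of -0.55, and length is itself the divisor in TPM. The 16 unopposed members with a gene of the other strand within 1000 bases had a median of 15.5 TPM (range 5.30 to 77.7), and the 28 farther from any had 9.25 TPM (range 1.12 to 51.9), ranges that overlap for most of their length.

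**Figure D2:**
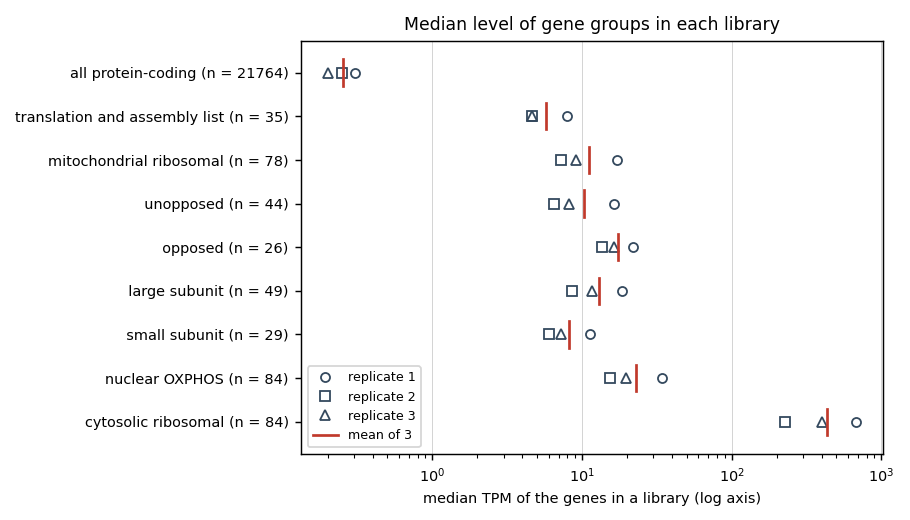
Median TPM over the genes of each group in each library (open symbols) with the mean of the 3 medians (red bar), on a log axis; n is the number of genes. The mitochondrial ribosomal protein genes lie between the translation and assembly list and the nuclear OXPHOS genes, and the cytosolic ribosomal protein genes lie far to the right.

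The members were set beside the 2 gene sets most like them. The cytosolic ribosome makes the proteins encoded in the nucleus, and its 84 genes had a median of 679, 226 and 404 TPM. The log2 difference of members minus this set was -5.23 ± 0.25, negative in 3 of 3 libraries (exact sign-flip permutation p = 0.25), and -5.42 over unopposed genes of both sets. The other set was the nuclear subunits of oxidative phosphorylation (OXPHOS), the respiratory chain and ATP synthase whose remaining subunits the mitochondrial ribosome makes. Its 84 genes had a median of 34.3, 15.5 and 19.6 TPM. The log2 difference of members minus this set was -1.06 ± 0.05 in TPM, negative in 3 of 3 libraries (exact sign-flip permutation p = 0.25), and -0.46 ± 0.18 in CPM. Both differences exceeded the spread between replicates.

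A list of 35 genes that act with the ribosome, its translation factors and assembly factors, had a median of 7.93, 4.64 and 4.66 TPM, with 30 at 1 TPM or more in every library. Initiation is represented by Mtif2 (8.46 ± 2.93 TPM, SD, n = 3) and Mtif3 (107 ± 10.2 TPM), elongation by Tufm (25.1 ± 11.3 TPM), Tsfm (6.04 ± 1.27 TPM) and Gfm1 (8.34 ± 2.82 TPM), and ribosome recycling by Mrrf (37.2 ± 11.9 TPM). Mtif3, Mrrf, Tsfm and Gfm1 are opposed. Slirp, which stabilises mitochondrial messenger RNAs together with Lrpprc, had 627, 757 and 806 TPM, whereas Lrpprc had 8.49, 4.64 and 3.60 TPM. Slirp is opposed by Alkbh1 and Snw1, and Lrpprc is unopposed. Mrm1, a methyltransferase of the ribosomal RNA, had 25.9 ± 5.25 TPM, the highest among the 15 unopposed genes of the list.

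A further 5 proteins of the ribosome carry other names. Chchd1 had 139, 54.5 and 79.3 TPM and Aurkaip1 38.3, 11.8 and 25.7 TPM, both unopposed and in the same order of libraries as most members. Gadd45gip1, which is opposed, had 248, 130.2 and 264 TPM. Dap3, a GTP-binding protein of the small subunit whose gene is opposed by Ash1l, had 20.2 ± 1.94 TPM (SD, n = 3). Ptcd3, which is unopposed, had 15.99 ± 5.49 TPM.

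The 26 opposed members make 28 pairings with a gene of the other strand, 27 of them distinct because Mrpl46 and Mrps11 face each other. In 15 the genes start at the overlap and run apart (head to head), in 9 they end in it (tail to tail), in 3 the partner lies inside the member and in 1 the member lies inside the partner. Partners were protein-coding in 20 and of another type in 8. The member stood above its partner in every library in 11 pairings and below it in every library in 14, and the order was mixed in 3. No uniform direction therefore held across the pairings.

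The pairs differed widely. Mrps25 stood above Nr2c2, a nuclear receptor gene with 12.6, 15.8 and 11.6 TPM, by 4.11 ± 0.21 on the log2 scale. Mrpl47 stood above Ndufb5, a subunit of respiratory complex I with 11.8, 3.52 and 6.37 TPM, by 4.79 ± 0.75, and above Actl6a by 2.58 ± 0.31. Mrps7 stood above Gga3 by 2.18 ± 0.59 and above Mif4gd by 2.68 ± 0.33. In the pair of members, Mrpl46 stood above Mrps11, which had 11.4, 2.45 and 4.61 TPM, by 3.62 ± 1.22, so the head-to-head genes of a large and a small subunit protein were counted at very different levels.

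Other members stood far below their partner. Mrpl12 had the lincRNA gene Gm16755 inside it, which had 1805, 1155 and 1713 TPM from 3686, 2021 and 2713 counts and shares 200 exon bases with it; the log2 ratio of Mrpl12 to it was -4.63 ± 0.71. Mrps26 had 10.6, 3.30 and 8.24 TPM and its antisense partner 4930473A02Rik 296, 411 and 390.0 TPM, although they share only the 8 bases printed above. The log2 ratio of Mrpl24 to Rrnad1 was -1.52 ± 0.30. Mrps34, which lies inside Mapk8ip3 with 63.4% of its exon bases shared, had 21.9, 23.8 and 25.4 TPM, the smallest relative spread among the members with a mean above 20 TPM, and a log2 ratio to Mapk8ip3 of -1.48 ± 0.27.

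**Figure D3:**
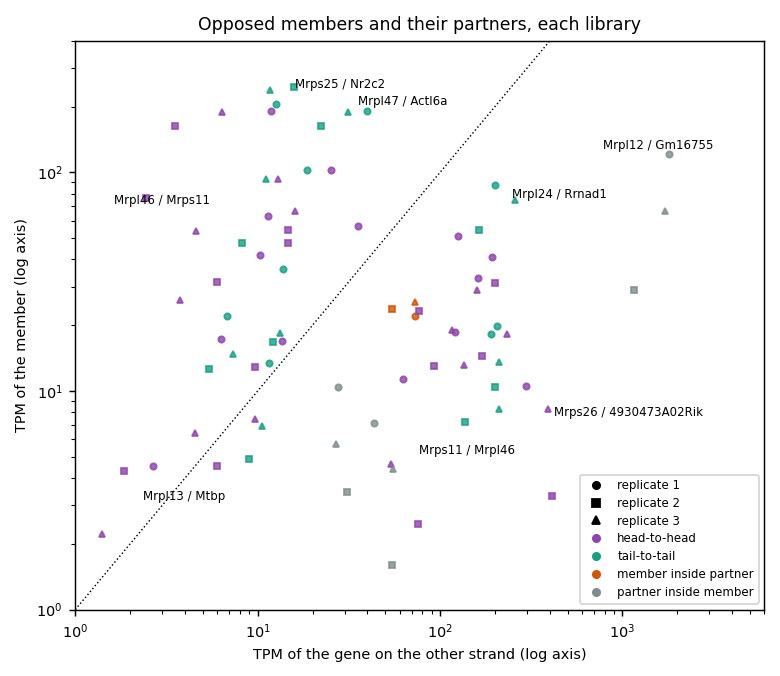
TPM of each opposed member (vertical) against the gene on the other strand (horizontal), both on log axes, with a point for each library and colours for the arrangement of the pair. The dotted line marks equal levels; points lie on both sides of it, and Mrpl53, with no count, is not drawn.

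Between libraries, most members moved in the same order. Of the 77 members with counts, 70 (90.9%) had their highest TPM in replicate 1, against 78.5% of protein-coding genes at a mean of 1 TPM or more, and 57 had their lowest in replicate 2, against 55.3%. In 55 both were so, a count for which the share among other genes was not computed. Of the rest, 4 were highest in replicate 2 (11.5% of the other genes) and 3 in replicate 3 (9.93%), while 2 were lowest in replicate 1 (10.5%) and 18 in replicate 3 (34.2%). The 7 members that were not highest in replicate 1 were Mrps25, Mrpl46, Mrpl48, Mrps34 and Mrpl27, which are opposed, and Mrps14 and Mrps33, which are not. Mrpl48, a mitochondria-specific protein of the large subunit, had 56.7, 54.4 and 66.5 TPM from 1011, 832 and 921 counts. Mrpl27, a counterpart of bacterial L27 near the peptidyl transferase centre, had 18.6, 23.3 and 13.2 TPM. These lie close together in Mrpl48 and are highest in replicate 2 in Mrpl27. Among unopposed members 42 of 44 were highest in replicate 1, beside 86.5% of unopposed protein-coding genes.

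The size of this shift was set against that of other genes. The median member deviated from its own mean by 0.65, -0.43 and -0.14 on the log2(TPM + 0.1) scale in replicates 1, 2 and 3, and the median protein-coding gene at 1 TPM or more by 0.51, -0.30 and -0.17. The members thus lay 0.14 above, 0.13 below and 0.02 above the other genes. With CPM scaled by TMM, a method that sets most genes equal, the median of the other genes moved by -0.40, 0.23 and 0.16 and the members' deviations became 0.26, -0.19 and 0.02, that of replicate 3 changing sign. A scaling factor moves all genes of a library alike, so the distance of the members from the other genes is not changed by it. Over unopposed genes alone the relative values were 0.12, -0.11 and -0.03 in TPM. The 2 gene sets most like the members deviated farther than they did in replicates 1 and 2. On the TPM scale, cytosolic ribosomal protein genes had medians of 0.75, -0.74 and -0.02, and OXPHOS genes 0.68, -0.51 and -0.13. The shift is thus not particular to the members.

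The shift was wider in unopposed than in opposed members. Replicate 1 exceeded replicate 2 by a median log2 of 1.26 in unopposed and 0.81 in opposed members, and by 0.92 and 0.61 in the protein-coding genes of these classes. The members' values lay above those of the other genes in both classes, but with 3 libraries of 1 group this describes the libraries and no condition.

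**Figure D4:**
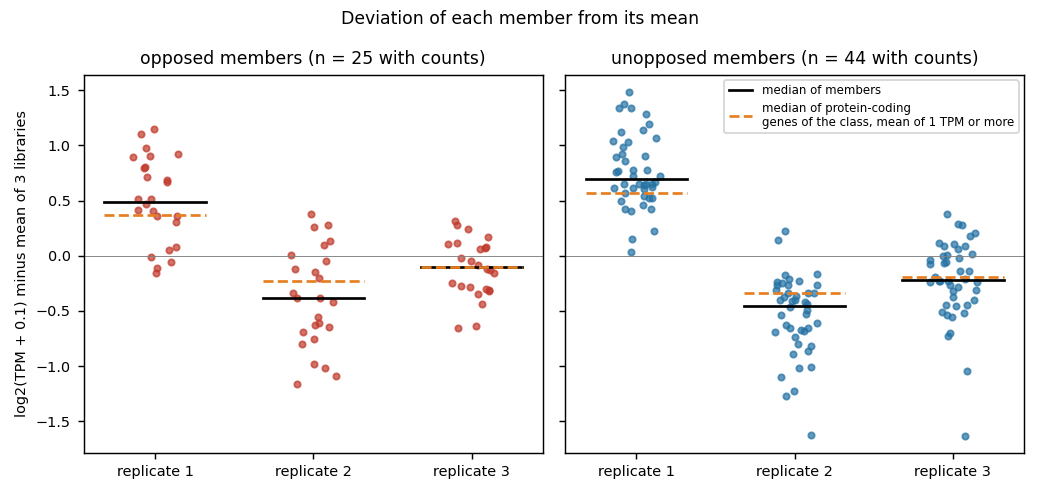
Deviation of each member's log2(TPM + 0.1) from its mean over the 3 libraries, for opposed members (left) and unopposed members (right). Points are members with counts, black bars the median of the members of the class, and dashed bars the median of protein-coding genes of the same class with a mean of 1 TPM or more. The black bars of opposed members include Mrpl53, which has no count, a deviation of 0 and no point. Both medians are positive in replicate 1 and negative in replicates 2 and 3, and the points of unopposed members in replicate 1 all lie above 0.

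Some members varied more than this shared shift. The widest ranges among members with a mean count of 10 or more were those of Mrpl22, Mrpl36, Mrps12, Mrps31, Mrps11 and Mrps16, with the highest library 9.31, 5.57, 5.27, 4.80, 4.63 and 4.53 times the lowest. Mrpl22, a large subunit protein by the peptide tunnel, had 24, 8 and 2 counts. Mrps12, a protein of the decoding centre, had 43, 7 and 16 counts, and Mrps16, which is needed for assembly of the small subunit, had 37, 7 and 20. Mrps31 had 7.78, 1.62 and 1.97 TPM from 56, 10 and 11 counts. Their lowest libraries rest on 2 to 10 counts.

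Against the spread that is usual for genes of their abundance, none of the members tested stood out. That spread was itself estimated from these 3 libraries, so only genes far from most others could pass. In edgeR's fit over 9469 genes, 67 members were tested and 0 passed at an adjusted p of 0.05 for variation beyond the dispersion trend, against 0.253% of all genes tested. DESeq2 marked 0 members as dispersion outliers. Before adjustment 2 members were under 0.05 in the edgeR fit, as were 610 (6.44%) of all genes tested. Mrpl12 had an edgeR adjusted p of 0.691 and Mrps31 of 0.722. Of the 35 translation and assembly genes 28 were tested, and 0 of these passed. The 11 members not tested for low counts were Mrps16, Mrps12, Mrpl36, Mrps28, Mrpl22, Mrpl42, Mrpl34, Mrps36, Mrps33, Mrpl23 and Mrpl53. Of the members of widest range named above, Mrpl22, Mrpl36, Mrps12 and Mrps16 were therefore not tested.

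Against counting noise alone, after TMM scaling, 34 of the 67 tested members (50.7%) varied by more than sampling allows, against 59.6% of all genes tested. Without the filter on low counts the order of the shares turned, with 37 of 77 members (48.1%) against 35.7% of 19067 genes. By class the calls were 17 of 25 opposed members, against 71.3% of opposed genes tested, 13 of 35 unopposed, against 50.5%, and 4 of 7 in between, against 52.4%. The 10 of smallest p were Mrps25, Mrpl48, Mrpl47, Mrpl12, Mrps7, Mrpl46, Mrps6, Mrpl30, Mrpl54 and Mrpl32, with adjusted p from 6.86e-153 to 3.85e-05 in the chi-square test. A small p here does not mark a wide range in TPM. Mrps25, Mrpl48 and Mrpl47 had the highest mean counts of the members, and their highest library was only 1.20, 1.22 and 1.17 times the lowest in TPM. Mrps34, of small spread in TPM, also passed (chi-square adjusted p = 2.38e-04), farthest in replicate 1 on the low side. Replicate 2 on the low side was the farthest library in 20 of the 34. The matching share over all genes called was not computed, so this count does not set the members apart.

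With library sizes set by unopposed genes alone, only 6 of 35 members (17.1%) passed, against 36% of the 4272 genes in that fit. These were Mrps6, Mrpl32, Mrpl30, Mrpl54, Mrps31 and Mrps14. Mrpl30 had 40.1, 13.9 and 14.8 TPM and Mrps14 had 7.85, 7.85 and 4.88 TPM, but the test uses TMM-scaled counts. On these, in the fit over all genes, the farthest library was replicate 1 on the high side for Mrpl30. For Mrps14 it was replicate 2 on the high side. Replicate 2 on the low side was farthest for Mrps6, Mrpl32, Mrpl54 and Mrps31. In that fit over all genes, the 6 thus differed in which library stood apart or on which side. The farthest library under the library sizes of unopposed genes was not computed. In the fit over all genes, 13 of 63 members passed without replicate 1 (20.6%, against 25.6% of genes tested), 19 of 73 without replicate 2 (26.0%, against 42.4%) and 32 of 70 without replicate 3 (45.7%, against 47.3%). Of the 28 translation and assembly genes tested 9 passed the counting noise test with all 3 libraries, beside the 59.6% of all genes.

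In the promoters, the letters of the ETS and YY1 motifs were more frequent in members than in other protein-coding genes. ETS factors, among them GABP, bind promoters of many genes for mitochondrial proteins. RefSeq gives 75 windows of 300 bases around the transcription start for 69 of the members, and 9 members have none. CCGGAAG stood on either strand in 26 windows (34.7%), compared with 11.9% of windows of protein-coding genes, 8.86% of all windows, 35.5% of those of cytosolic ribosomal protein genes and 22.5% of those of OXPHOS genes. AAGATGGCG, the letters bound by YY1, stood in 8 windows (10.7%), compared with 1.93% of protein-coding and 1.403% of all windows. The share was 7.89% in windows of cytosolic ribosomal protein genes and 9.86% in those of OXPHOS genes, close to that of the members. The NRF1 motif, of a regulator of nuclear genes for mitochondria and in capitals in the Mrpl32 sequence above, stood in 3 (4%), compared with 1.38% and 0.971%. Windows of OXPHOS genes had a higher share than the members, 7.04%, and those of cytosolic ribosomal protein genes had 2.63%.

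The other motifs are given with the shares in member, protein-coding and all windows. The GC box GGGCGG stood in 52%, 47.8% and 35.7%, the CCAAT box CCAAT in 40%, 37.8% and 37.4%, the E-box CACGTG in 9.33%, 8.03% and 7.15% and the TATA box TATAAA in 6.67%, 12.1% and 13.6%. The CRE TGACGTCA stood in 2.67%, 2.32% and 1.79%, the THAP letters ACTACAA in 6.67%, 3.67% and 3.24% and the ZBTB33 motif in 1.33%, 0.687% and 0.466%. The motifs are searched on both strands and can overlap. Members with the ETS letters had a median of 9.46 TPM (n = 26) and those without 12.4 TPM (n = 43), and among unopposed members 11.4 TPM (n = 12) and 9.98 TPM (n = 27), so the order of the medians was not the same. A match is a stretch of letters and says nothing of binding.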

How the data were processed

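The deposited values are raw counts of read pairs per gene, made by the authors with featureCounts 1.4.6-p4 over exons of GENCODE vM13 on mm10, with both ends aligned and strand setting 1, per the file headers, after an alignment step named star2. The assay is labelled as total RNA-seq, but the linked library protocol carries poly(A)+ RNA in its name. Symbols and types came from GENCODE vM21 of the same assembly, which matched 50376 of 50600 genes (99.6%). TPM was computed here from the deposited counts and exon lengths over all genes. Classes of overlap came from bedtools 2.31.1 on the files' coordinates.

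The 2 tests between libraries used edgeR 4.0.16 (R 4.3.3) with TMM scaling, an intercept alone and a minimum count of 10. The first set the deviance at the trended dispersion, the second the counts at Poisson noise, against a chi-square with 2 degrees of freedom, one-sided, with Benjamini-Hochberg adjustment over all genes tested. DESeq2 1.42.0 was the alternative. The scripts were tested on simulated data. Medians of log2(TPM + 0.1) were compared within each library.

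Genes named in the text are the 8 highest and 8 lowest members, the 6 of widest range, those of smallest p, the leading opposed and unopposed members, the Mrps18 family and members without counts; Mrps34, Mrps26, Mrps14 and the genes not highest in replicate 1 were singled out after their values were seen. In the lists, Mtres1 was matched through an older symbol. The members and lists were chosen with earlier results of these data known. Intervals and floors cover counting error only. Alternatives were another pseudocount, filter, scale, summary, overlap rule, tool, and leaving out each library.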

Additional observations from a re-analysis of the deposited data

How the results depend on the processing

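Depth limits the low members: 11 of 78 fell under the filter of the tests, and a count of 0 allows up to 3 counts. No paired analysis was possible because the series has only 1 group. The differences between sets of members and other sets kept their direction under each alternative run, except that bacterial-type minus mitochondria-specific members became 0.092 with the mean of log2 values; counting Mrpl47 as bacterial-type, chosen after seeing the data, gave -0.03. Moving Mrps18a and Mrps30 to the large subunit without Mrps36, chosen likewise, gave 0.50 for large minus small. Leaving out each library gave 0.70 to 1.02 for opposed minus unopposed members, 0.59 to 0.69 for large minus small, -0.23 to -0.04 for bacterial-type minus mitochondria-specific, -5.37 to -5.13 against cytosolic ribosomal protein genes and -1.09 to -1.04 against OXPHOS genes, and with 2 libraries no exact p can fall below 0.50. The median level ranged from 8.19 to 13.1 TPM, and members at 1 TPM or more in every library numbered 74 to 76 of 78, or 41 of the 44 unopposed. Members beyond the dispersion trend were 0 in each fit run. Members beyond counting noise were 34 of 67 with DESeq2 size factors (57.3% of all genes tested), 37 of 77 without the filter (35.7%), 6 of 35 with unopposed genes only (36%) and 13 of 63 to 32 of 70 when a library was left out (25.6% to 47.3%). With TMM-scaled CPM the deviation of replicate 1 fell from 0.65 to 0.26 and that of replicate 3 became 0.017; the shift of the other genes under that scaling accompanies both, and no other cause was tested.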
